A study of Mus musculus with 10 samples.

Results

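Chromatin accessibility was examined at the genes of 7 transcription factors that set intestinal epithelial identity, *Cdx1*, *Cdx2*, *Hnf4a*, *Hnf4g*, *Gata6*, *Foxa1* and *Foxa2*. The members were chosen by name, and each was followed over its gene body with 20 kb on each side. All 7 held a peak, among 18452 of 21911 protein-coding mouse genes with a peak in such a window in at least 1 library. Within the 7 windows lay 71 of the 85680 regions obtained by merging the peaks of all libraries, and these are called sites.

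Omni-ATAC-seq, in which a transposase cuts and tags open chromatin, was performed on live cells sorted from mouse colon organoids, which are epithelial cultures grown from colon crypts. WT organoids were compared with AHR KO organoids, which lack the aryl hydrocarbon receptor, a ligand-activated transcription factor, in the epithelium (Vil-Cre *Ahr* fl/fl, on a C57BL/6 background, where the villin promoter drives Cre in intestinal epithelial cells). Both genotypes were first grown in WENR (Wnt3a, EGF, Noggin and R-spondin). They were taken there (2 WT and 3 AHR KO libraries) or after 4 days without Wnt3a. The latter is called d4 ENR (3 WT and 2 AHR KO libraries). By the study's methods WENR also held SB202190, an ALK5 inhibitor and nicotinamide, which are not listed for ENR. Wnt3a withdrawal therefore names the whole change of medium here, and the parts of its components cannot be told apart. The labels do not say which libraries came from separate mice or organoid lines, so p-values measure only the spread between these libraries, which may be technical, and mouse age is not given in the sources used here.

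CDX1 and CDX2 are caudal-type homeobox factors that establish and maintain intestinal rather than gastric fate. HNF4A and HNF4G are closely related nuclear receptors that act together on enterocyte genes such as those of the brush border and lipid handling. GATA6 is a zinc-finger factor of the endoderm needed for crypt proliferation and differentiation, and the forkhead factors FOXA1 and FOXA2 can open compact chromatin and take part in gut endoderm formation and in secretory cell differentiation.

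The libraries differed in how much chromatin was called open. Peaks covered 61.8 to 67.2 Mb in WENR, 26.2 to 41.0 Mb in WT d4 ENR and 46.6 and 50.1 Mb in AHR KO d4 ENR, and held 63.0% to 68.6%, 14.1% to 30.9% and 33.8% and 44.3% of the fragment coverage, respectively. The libraries held 41686181 to 49126792 fragments in WENR and 30354729 to 36307860 in d4 ENR. WT d4 ENR replicate 1 stood apart, with 33433 peaks against 47898 to 65308 in the others. Peaks over the targeted gene *Ahr* with 20 kb on each side covered 3277 and 3846 bp in WT WENR, 6155 to 8145 bp in AHR KO WENR, 1981 to 2632 bp in WT d4 ENR and 4471 and 4712 bp in AHR KO d4 ENR, so a peak list does not show the deletion. Because the cells were measured in bulk, fewer cells with an open site and less opening per cell cannot be told apart.

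For each gene the measure was the bases covered by peaks in its window, and beside it the same value per Mb covered by all peaks of that library, which sets the gene against the overall extent of its own list. The member windows ran from 44.1 kb at *Foxa2* to 190.0 kb at *Hnf4g*, and 106.1 kb at *Hnf4a*. Covered bases were not set to window size, so members are not ranked here by density. Over all genes, covered bases were lower in every d4 ENR than in every WENR library, within both genotypes, in 59.3% and higher in 0.358%. Within one genotype they were lower in 84.5% in WT and in 62.3% in AHR KO. Of the 7 members 5 fell in both genotypes and none rose. All 7 were lower in WT and 5 were lower in AHR KO, so the member counts have to be read against a change that touched most genes.

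The caudal genes differed from each other in AHR KO organoids. *Cdx1* (ENSMUSG00000024619.8, chromosome 18 from 61018862 to 61036199, GRCm38, minus strand) had 8807 and 10018 bp covered in WT WENR and 9386, 9532 and 10124 bp in AHR KO WENR. After withdrawal it had 4319, 5397 and 5727 bp in WT d4 ENR and, in AHR KO, 7340 and 7806 bp. Every d4 ENR library lay below every WENR library, and the AHR KO pair exceeded the 3 WT libraries after withdrawal. *Cdx1* fell by 3186 bp on Wnt3a withdrawal, averaged over the genotypes (exact permutation test, 2-sided, p = 0.02, adjusted p = 0.0335 over all genes), to 0.547 of its WENR level in WT and 0.782 in AHR KO. That adjusted p is shared by every gene at the smallest p of 0.02, so it follows from how many genes changed without overlap. Per Mb covered, *Cdx1* overlapped between the media, at 142 to 159.5 bp in WENR and 140 to 168 bp in d4 ENR.

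*Cdx2* (ENSMUSG00000029646.3, chromosome 5 from 147300805 to 147307270, minus strand) had 8508 and 9198 bp in WT WENR, 9158, 8542 and 9691 bp in AHR KO WENR, 5330, 6214 and 8320 bp in WT d4 ENR and 9257 and 8990 bp in AHR KO d4 ENR. The AHR KO d4 ENR libraries lay within the range of the WENR libraries, and the WT d4 ENR libraries lay below all others. The difference between media was -1119 bp over both genotypes (exact permutation p = 0.18, adjusted p = 0.213). The d4 ENR to WENR ratio of *Cdx2* was 0.748 in WT and 0.999 in AHR KO, and 79.9% and 86.3% of the 15803 genes covered in all 10 libraries had a lower ratio. Per Mb covered, *Cdx2* was higher in d4 ENR, where WT had 194 to 203 bp and AHR KO 179 and 199 bp, against 136 to 148 bp in WENR (difference 52.3 bp per Mb, exact permutation p = 0.02, adjusted p = 0.0524).

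The HNF4 genes showed opposite patterns in AHR KO organoids after Wnt3a withdrawal. *Hnf4a* (ENSMUSG00000017950.16, chromosome 2 from 163506808 to 163572910, plus strand) was the most widely covered member, with 19071 and 17739 bp in WT WENR and 19499, 18534 and 18568 bp in AHR KO WENR. It had 7135, 9169 and 10330 bp in WT d4 ENR and 11756 and 12211 bp in AHR KO d4 ENR. The groups of the media did not overlap in either genotype, and the AHR KO libraries were the higher ones in d4 ENR. *Hnf4a* fell by 8205 bp (exact permutation p = 0.02, adjusted p = 0.0335), to 0.482 of its WENR level in WT and 0.635 in AHR KO. Per Mb covered, *Hnf4a* had 276 to 315 bp in WENR and 244 to 286 bp in d4 ENR, which overlapped (difference -36.2 bp, exact permutation p = 0.04, adjusted p = 0.0879).

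*Hnf4g* (ENSMUSG00000017688.14, chromosome 3 from 3508030 to 3658052, plus strand) had 9776 and 8764 bp in WT WENR, 9872, 10271 and 10060 bp in AHR KO WENR, 4526, 6072 and 7278 bp in WT d4 ENR and 12492 and 11177 bp in AHR KO d4 ENR. It was lower in all WT d4 ENR than in both WT WENR libraries, with a ratio of 0.643. In AHR KO it was higher in both d4 ENR than in all 3 WENR libraries, with a ratio of 1.18. Of all genes, 5.22% were covered more in d4 ENR in AHR KO without overlap, and 1.91% were covered more there and less in WT, as *Hnf4g* was. The 2 changes cancelled over both genotypes (difference -772 bp, exact permutation p = 0.48, adjusted p = 0.521). With only peaks of a −log10 q of at least 5 kept, the difference in AHR KO was -189 bp (exact permutation p = 1). Per Mb covered, *Hnf4g* had 140 to 163 bp in WENR, 173 to 189 bp in WT d4 ENR and 223 and 268 bp in AHR KO d4 ENR, with no overlap between the 3 ranges (media difference 59.7 bp, exact permutation p = 0.02, adjusted p = 0.0524).

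*Gata6* (ENSMUSG00000005836.10, chromosome 18 from 11052064 to 11085635, plus strand) lost the largest share of its covered bases among the members when all peaks were counted. It had 7734 and 9486 bp in WT WENR, 7929, 7757 and 10006 bp in AHR KO WENR, 2265, 3304 and 3626 bp in WT d4 ENR and 4158 and 4645 bp in AHR KO d4 ENR. The media did not overlap, and it fell by 4854 bp (exact permutation p = 0.02, adjusted p = 0.0335). The ratios of *Gata6* were 0.356 in WT and 0.514 in AHR KO, and 7.78% and 6.26% of genes covered in all libraries had a lower one. It was the only member lower in d4 ENR per Mb covered without overlap, with 123 to 151 bp in WENR and 86.4 to 103 bp in d4 ENR (difference -43.9 bp, exact permutation p = 0.02, adjusted p = 0.0524).

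The forkhead genes both fell on Wnt3a withdrawal, and the genotypes parted in d4 ENR at *Foxa1* but overlapped at *Foxa2*. *Foxa1* (ENSMUSG00000035451.7, chromosome 12 from 57540628 to 57546916, minus strand) had 8825 and 8806 bp in WT WENR, 8526, 8429 and 8603 bp in AHR KO WENR, 5142, 5834 and 6327 bp in WT d4 ENR and 7056 and 7775 bp in AHR KO d4 ENR. AHR KO lay below WT in WENR and above it in d4 ENR, both without overlap. *Foxa1* fell by 2076 bp on Wnt3a withdrawal (exact permutation p = 0.02, adjusted p = 0.0335), to 0.654 of its WENR level in WT and 0.870 in AHR KO. Per Mb covered *Foxa1* was higher in d4 ENR, where WT had 154 to 196 bp and AHR KO 152 and 155 bp, against 128 to 143 bp in WENR (difference 28.1 bp, exact permutation p = 0.02, adjusted p = 0.0524).

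*Foxa2* (ENSMUSG00000037025.11, chromosome 2 from 148042877 to 148046969, minus strand) had the least covered sequence, with 3913 and 3840 bp in WT WENR, 4403, 4211 and 4598 bp in AHR KO WENR, 2155, 2655 and 2475 bp in WT d4 ENR and 2491 and 2739 bp in AHR KO d4 ENR. In WENR the AHR KO libraries lay above WT, whereas in d4 ENR the genotypes overlapped. *Foxa2* fell by 1619 bp (exact permutation p = 0.02, adjusted p = 0.0335), to 0.626 of its WENR level in WT and 0.594 in AHR KO. It was the only member with a smaller ratio in AHR KO than in WT, and 12.6% of genes had a lower ratio in AHR KO. The median ratio over all 15803 genes was 0.604 in WT and 0.820 in AHR KO. Per Mb covered, *Foxa2* had 60.4 to 82.8 bp in WT d4 ENR and 53.5 and 54.7 bp in AHR KO d4 ENR.

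**Figure D1:**
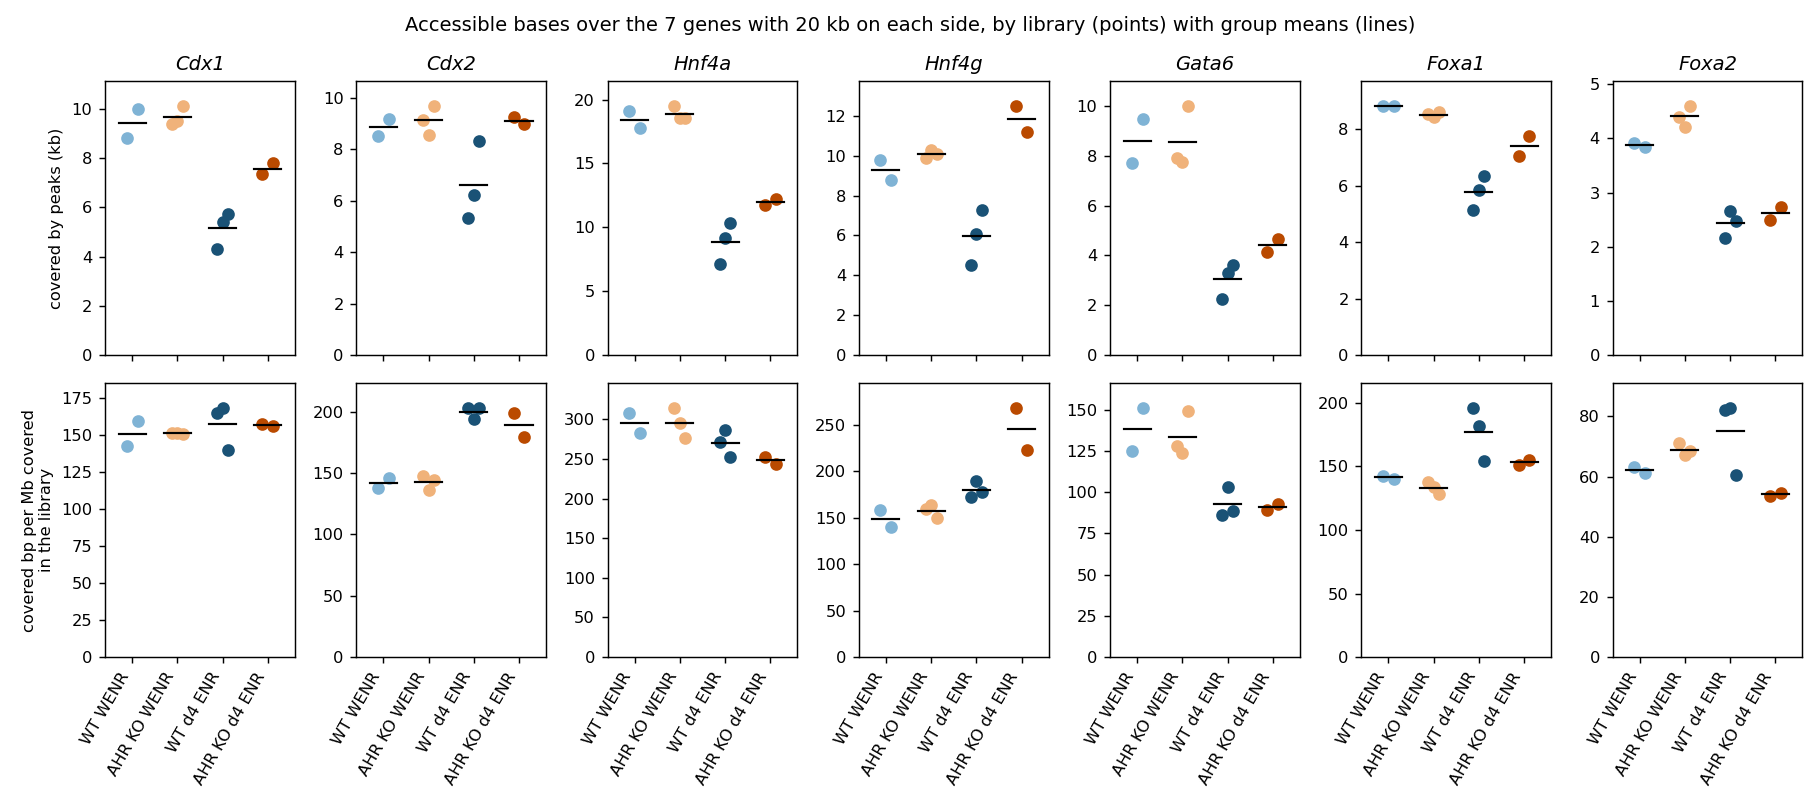
Bases covered by peaks over each gene with 20 kb on each side in kb (upper row) and in bp per Mb covered by all peaks of the library (lower row); points are libraries of WT WENR (n = 2), AHR KO WENR (n = 3), WT d4 ENR (n = 3) and AHR KO d4 ENR (n = 2), and lines are group means. *Gata6* sits lower in d4 ENR in both rows, and *Hnf4g* sits highest in AHR KO d4 ENR in both rows.

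The media were then set apart on the relative scale. Per Mb covered, 12.5% of all genes were lower and 25.7% were higher in every d4 ENR library of both genotypes. Among the members *Gata6* was lower and *Cdx2*, *Hnf4g* and *Foxa1* were higher. Each of these 4 had an exact permutation p of 0.02, the smallest of this test, and an adjusted p of 0.0524. Every gene at that p shares this adjusted value, so no gene could pass 0.05 on this scale. With every list shortened to the 33433 most significant peaks, only *Hnf4a* (-4226 bp) and *Gata6* (-614 bp) remained lower in d4 ENR in both genotypes, each at an exact permutation p of 0.02 and an adjusted p of 0.05.

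The comparison of genotypes asks whether loss of AHR changes these genes in either medium. In d4 ENR the AHR KO libraries exceeded every WT library at 6 of the 7 members, all except *Foxa2* (difference 187 bp, exact permutation p = 0.40, adjusted p = 0.519). Over all genes this was so in 59.5% and the opposite in 0.260%. The ratio of AHR KO to WT in d4 ENR was 1.99 for *Hnf4g*, 1.47 for *Cdx1*, 1.44 for *Gata6*, 1.38 for *Cdx2*, 1.35 for *Hnf4a*, 1.29 for *Foxa1* and 1.08 for *Foxa2*, beside a median of 1.35 over all genes. *Hnf4g* stood above 93.9% and *Foxa2* above 6.60% of genes. With 3 against 2 libraries the exact permutation p cannot go below 0.20, which is the value of the 6 genes, and their adjusted p was 0.335.

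The wider coverage of AHR KO d4 ENR libraries moved with this result, and its part in it was not tested. Per Mb covered, *Hnf4g* alone was higher in AHR KO in d4 ENR without overlap (difference 65.8 bp, exact permutation p = 0.20), which 10.7% of genes were, and *Foxa2* was lower (difference -21.1 bp), which 22.1% were. With lists of equal length, *Cdx1*, *Cdx2*, *Hnf4a*, *Hnf4g* and *Gata6* were higher in AHR KO, beside 55.5% of genes. *Foxa2* was then lower by mean, at -108 bp.

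In WENR *Hnf4g* (ratio 1.09) and *Foxa2* (1.14) were covered more and *Foxa1* (0.966) less in AHR KO without overlap, each at an exact permutation p of 0.20 and an adjusted p of 0.870. Over all genes 12.5% were covered more and 10.5% less, so 2 and 1 of 7 are near the background. Leaving out WT WENR replicate 2 leaves 1 WT library, which loosens the call for every gene. No matching share of all genes is given, so a count from it cannot be set beside 12.5%. Averaged over the media, *Hnf4g* (3337 bp more in AHR KO, exact permutation p = 0.02, adjusted p = 0.265) and *Foxa2* (357 bp more, exact permutation p = 0.04, adjusted p = 0.285) reached an unadjusted p of 0.05, as 13.9% of genes did in this direction, and neither passed the adjustment. At 0.02, the smallest p of that test, no gene had an adjusted p below 0.265. *Hnf4g* with lists of equal length had an exact permutation p of 0.18 in that comparison. The averaged *Foxa2* difference was 289 to 419 bp with 1 library left out at a time and -7.22 bp per Mb covered, where it pointed the other way.

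The difference between the media in the genotype difference was tested directly. In covered bases it was largest for *Hnf4g*, at 5078 bp (exact permutation p = 0.20, adjusted p = 0.458), and *Foxa1* was the only member at an unadjusted p of 0.05 or less, with 1944 bp (exact permutation p = 0.02, adjusted p = 0.317), where 11.4% of genes were. This test also turns on the order of the WENR libraries, so it can miss a difference held to 1 medium. Which member led depended on the scale. With lists of equal length *Cdx1* had the largest value, at 5805 bp (exact permutation p = 0.02, adjusted p = 0.270), ahead of *Hnf4g* (5120 bp, exact permutation p = 0.06, adjusted p = 0.320), and *Foxa1* had 1291 bp (exact permutation p = 0.12, adjusted p = 0.369). Per Mb covered *Hnf4g* was again largest, at 57.2 bp (exact permutation p = 0.18, adjusted p = 0.737), and *Foxa2* had -27.7 bp (exact permutation p = 0.02, adjusted p = 0.737). No member passed the adjustment on any of these 3 scales. No gene could, because 0.02 is the smallest p of this test and genes at it share the adjusted values given.

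**Figure D2:**
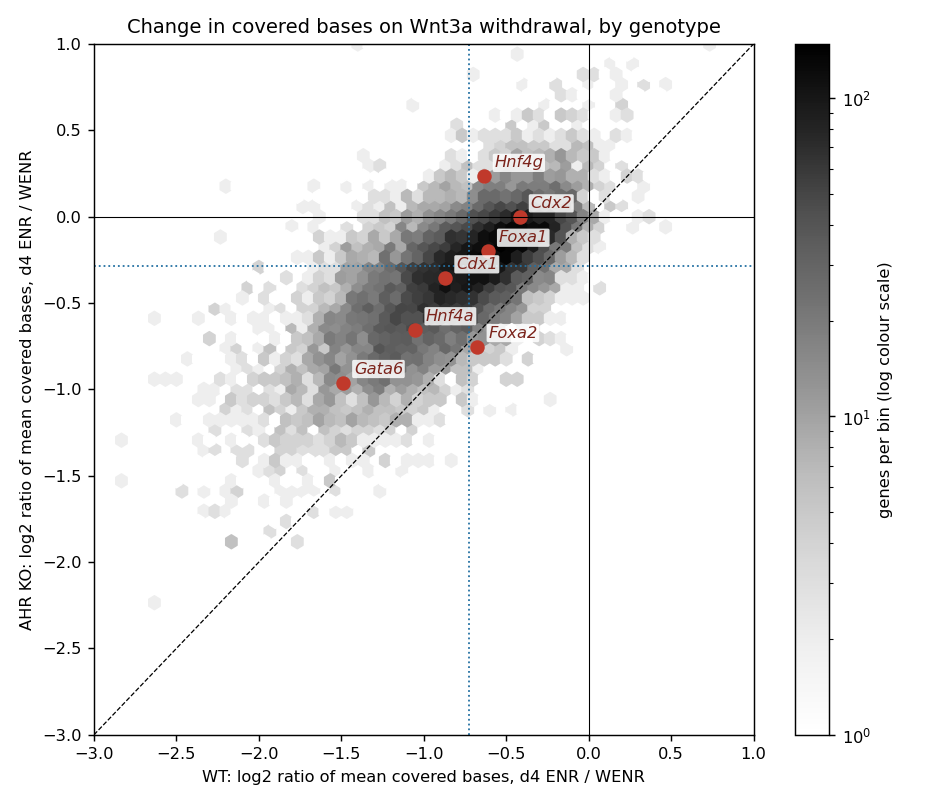
Log2 ratio of mean covered bases in d4 ENR to WENR in WT (x axis) and AHR KO (y axis); shading counts 15698 genes covered in all 10 libraries (105 lie outside the axes), red points are the 7 members, dotted lines mark the median over genes (-0.73 and -0.29) and the dashed line marks equal ratios. *Hnf4g* lies above 0 in AHR KO and below 0 in WT, and *Foxa2* is the only member under the dashed line.

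The 71 sites were resolved next. They comprised 8 at *Cdx1*, 8 at *Cdx2*, 16 at *Hnf4a*, 15 at *Hnf4g*, 13 at *Gata6*, 6 at *Foxa1* and 5 at *Foxa2*, of which 10 lay at promoters of the members, 1 in an exon, 25 in introns, 16 upstream and 19 downstream. Distances are from the annotated start of the gene to the site's centre, positive in the direction of transcription. WENR libraries called 54 to 58 of the sites, WT d4 ENR libraries 32, 37 and 43, and AHR KO d4 ENR libraries 44 and 51. All 10 libraries called 30 sites (4 at *Cdx1*, 4 at *Cdx2*, 9 at *Hnf4a*, 6 at *Hnf4g*, 2 at *Gata6*, 4 at *Foxa1* and 1 at *Foxa2*), which 32.9% of all regions were. Of the 10 promoter sites 9 were among them, against 21 of the 61 other sites. The exception, 7.0 kb inside *Gata6*, was called in 1 library. The matching share among promoters of all genes is not given here, so the contrast cannot be read as particular to the members. Single libraries held 10 of the sites.

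At *Hnf4g* WT d4 ENR libraries called 6, 7 and 11 sites and AHR KO d4 ENR libraries 12 and 15, while WENR libraries called 9 to 12. At *Gata6* the WENR libraries called 6 to 9 sites and the d4 ENR libraries 2 to 5. In d4 ENR both AHR KO libraries thus held more *Hnf4g* sites than any WT library. This also held at *Cdx1* (5 and 5 against 4, 4 and 4) and *Cdx2* (7 and 7 against 4, 5 and 6). At *Gata6* the counts of the genotypes met at 4, and at *Hnf4a*, *Foxa1* and *Foxa2* they overlapped. The share of all genes with such a separation is not given here.

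Peaks in all 5 WENR and no d4 ENR library marked 7 sites, where 5.46% of all regions had this pattern, and none of the sites had the opposite one, which 0.317% had. Of these 7, 3 lay in intron 1 of *Hnf4a*, between its upstream start, known as P2, and its downstream start, known as P1. They were centred at +8.3, +19.7 and +37.4 kb and had fold enrichments over local background of 2.2 to 2.36, 2.27 to 2.66 and 2.10 to 2.45 in WENR. The first 2 also overlap the antisense gene *Hnf4aos*. At *Cdx1* a site at +25.7 kb in the neighbouring *Slc6a7* had fold enrichments of 3.28 to 4.64, and a site at -8.7 kb at a promoter of *Pdgfrb* had 2.99 to 3.69. *Gata6* lost an intronic site at +23.0 kb (2.40 to 2.68), and *Foxa2* a site at +6.8 kb at the promoter of *9030622O22Rik* (1.87 to 2.65). With lists of equal length the count was 1. An absent peak means that a site did not pass the caller's threshold.

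Peaks in both AHR KO and no WT library in d4 ENR marked 3 sites, all in intron 1 of *Hnf4g*, where 2.84% of all regions had this pattern and 0.0864% the opposite one. The site at +48.6 kb had fold enrichments of 4.03 and 4.86 in AHR KO d4 ENR, no peak in WT d4 ENR, 3.34 in WT WENR replicate 1, and 3.75 and 3.16 in AHR KO WENR replicates 2 and 3. The site at +56.1 kb (chr3:3563796-3564464) had 2.66 and 2.85 in AHR KO d4 ENR and was called in all WENR libraries at 2.60 to 3.47. It was the only site present everywhere but in WT d4 ENR, as 1.68% of regions were. The site at +73.2 kb (chr3:3580873-3581659) had 3.61 and 3.31 in AHR KO d4 ENR, 2.97 and 3.25 in AHR KO WENR replicates 1 and 2, and no peak in any WT library. The count was 8 without WT d4 ENR replicate 3, and leaving out either AHR KO d4 ENR library leaves 1 of that group. Dropping a library loosens the pattern for every region. The matching share of all regions is not given, so such a count cannot be set beside 2.84%. In WENR no site was called in all libraries of one genotype and none of the other, as 1.18% of regions were for AHR KO and 0.759% for WT.

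**Figure D3:**
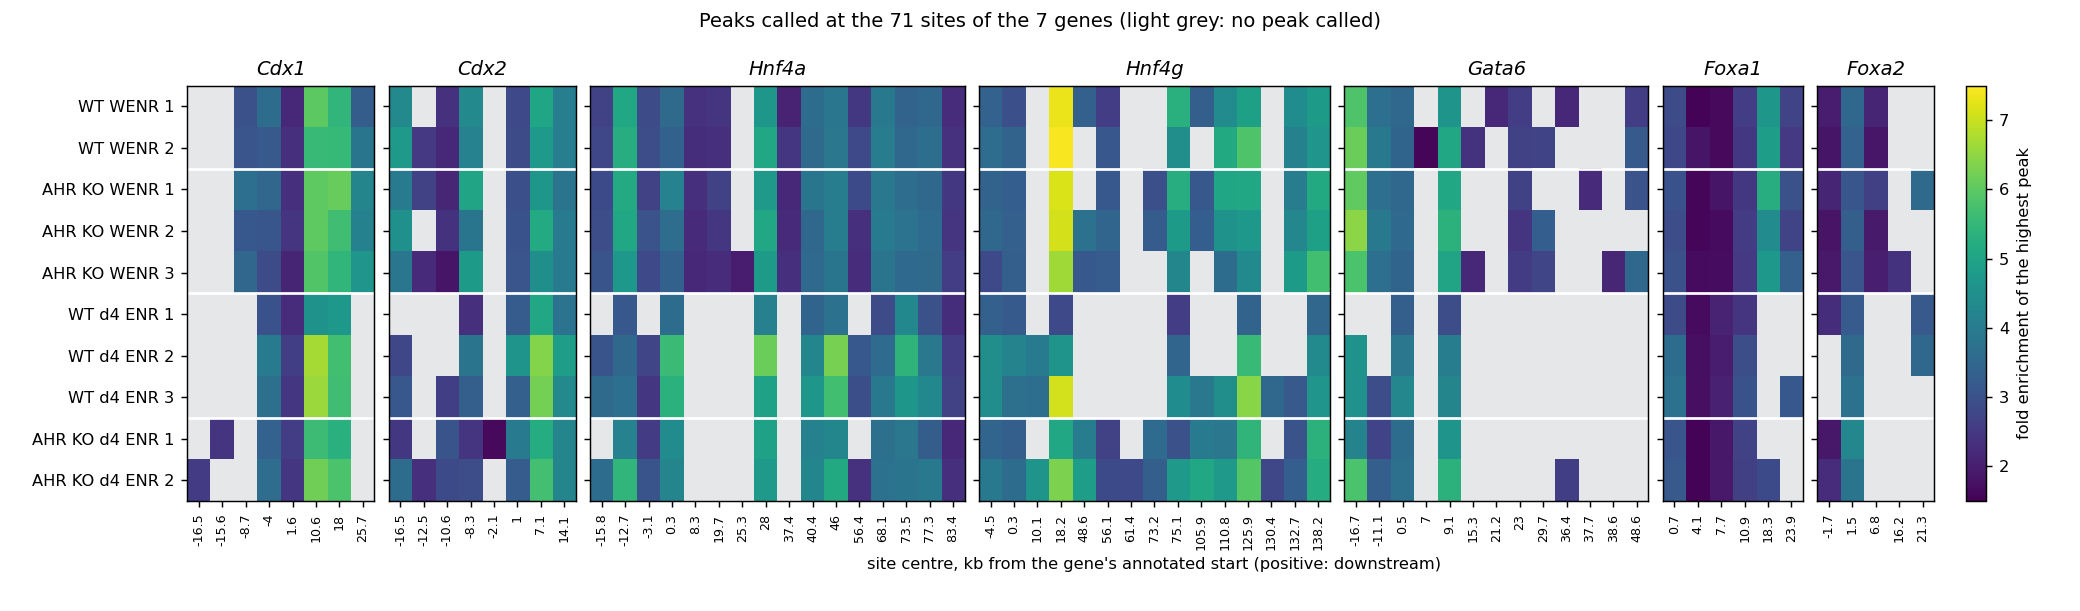
Fold enrichment over local background of the highest peak at each of the 71 sites (columns, ordered by distance in kb from the annotated start) in each of the 10 libraries (rows); light grey marks no called peak. Columns that are grey in all 3 WT d4 ENR rows and coloured in both AHR KO d4 ENR rows are the *Hnf4g* sites at 48.6, 56.1 and 73.2 kb.

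The central 300 bases are shown for 3 *Hnf4a* sites and the *Foxa2* site lost in d4 ENR, and for the *Hnf4g* sites at +56.1 and +73.2 kb. These are part of the sites that parted media or genotypes completely by presence. The *Hnf4g* site at +48.6 kb, the *Cdx1* sites at +25.7 and -8.7 kb and the *Gata6* site at +23.0 kb also did and are not shown. Sequences are from GRCm38, plus strand, 5′ to 3′, in lower case, with matches on either strand to the motifs searched in capitals (CATAAA for CDX, AGATAA for GATA, and GCGTG for the AHR:ARNT core).
Hnf4a +8.3 kb, chr2:163514998-163515297: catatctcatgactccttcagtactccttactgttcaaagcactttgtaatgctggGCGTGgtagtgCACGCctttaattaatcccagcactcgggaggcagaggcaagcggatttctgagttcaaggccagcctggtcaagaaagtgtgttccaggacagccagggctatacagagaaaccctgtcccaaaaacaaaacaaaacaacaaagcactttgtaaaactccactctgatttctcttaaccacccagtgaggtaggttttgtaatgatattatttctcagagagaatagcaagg
Hnf4a +19.7 kb, chr2:163526402-163526701: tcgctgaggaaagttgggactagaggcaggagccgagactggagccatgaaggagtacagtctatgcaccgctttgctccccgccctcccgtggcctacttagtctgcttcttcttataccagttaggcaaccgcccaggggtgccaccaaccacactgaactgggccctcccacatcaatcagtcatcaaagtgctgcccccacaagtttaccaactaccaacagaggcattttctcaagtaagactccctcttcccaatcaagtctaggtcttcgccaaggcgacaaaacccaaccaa
Hnf4a +37.4 kb, chr2:163544013-163544312: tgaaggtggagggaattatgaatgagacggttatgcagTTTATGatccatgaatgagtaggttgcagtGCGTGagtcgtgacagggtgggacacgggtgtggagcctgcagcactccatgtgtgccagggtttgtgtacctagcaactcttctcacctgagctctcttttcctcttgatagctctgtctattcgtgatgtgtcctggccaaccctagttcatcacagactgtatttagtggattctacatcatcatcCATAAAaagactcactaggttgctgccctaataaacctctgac
Hnf4g +56.1 kb, chr3:3563981-3564280: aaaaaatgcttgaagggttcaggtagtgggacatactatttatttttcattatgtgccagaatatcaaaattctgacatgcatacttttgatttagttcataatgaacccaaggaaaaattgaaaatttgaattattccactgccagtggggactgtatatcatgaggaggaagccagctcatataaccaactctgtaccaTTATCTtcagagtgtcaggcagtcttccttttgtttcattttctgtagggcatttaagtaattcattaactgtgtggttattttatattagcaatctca
Hnf4g +73.2 kb, chr3:3581117-3581416: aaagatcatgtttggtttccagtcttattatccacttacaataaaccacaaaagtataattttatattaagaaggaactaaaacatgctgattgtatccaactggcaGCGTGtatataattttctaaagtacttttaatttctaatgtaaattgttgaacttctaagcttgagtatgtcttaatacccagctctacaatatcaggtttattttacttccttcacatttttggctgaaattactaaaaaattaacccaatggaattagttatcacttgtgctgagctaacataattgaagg
Foxa2 +6.8 kb, chr2:148040068-148040367: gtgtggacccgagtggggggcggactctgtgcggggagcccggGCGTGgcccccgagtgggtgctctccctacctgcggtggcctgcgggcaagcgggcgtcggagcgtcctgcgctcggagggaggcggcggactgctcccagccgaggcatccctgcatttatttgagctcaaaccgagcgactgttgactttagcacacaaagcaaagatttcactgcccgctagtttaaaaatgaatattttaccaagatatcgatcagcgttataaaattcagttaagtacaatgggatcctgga

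The +8.3 kb *Hnf4a* sequence holds 2 AHR:ARNT cores, both in the 55% of it that is marked as repeat. The +37.4 kb sequence holds 2 CDX matches and 1 AHR:ARNT core, and the +19.7 kb sequence holds none. Of the *Hnf4g* sequences, that at +56.1 kb holds 1 GATA match and that at +73.2 kb 1 AHR:ARNT core. The 3 *Hnf4g* sites had a GC content of 31.1% to 34.8% (median 32.7%), whereas the 2435 regions called in both AHR KO and no WT library in d4 ENR had a median of 45.6%. All 15 *Hnf4g* sites were low in GC (median 37.4%, 31.1% to 47.3%), beside 49.4% for the 71 sites and 47.6% for all regions. GC content therefore moved with the *Hnf4g* locus, and its part in the result was not tested.

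Over the central 300 bases of all 71 sites, the share with a motif was close to that of 85677 regions for CDX (19.7% and 20.6%) and GATA (14.1% and 14.7%). The FOXA motif TGTTTAC was in 4.23% of sites and 5.72% of regions. The HNF4 motif CAAAGTTCA was in 3 sites (4.23%, 0.927% of regions), 2 at *Hnf4g* and 1 at *Foxa2*, while its form CAAAGTCCA was in no site and 1.23% of regions. The AHR:ARNT core was in 21 sites, 8 of them at *Hnf4a* (29.6%, 21.9% of regions). The TEAD motif CATTCC was in 15.5% and the AP-1 motif TGANTCA in 9.86% of sites, beside 18.3% and 19.4% of regions. Both strands were searched and matches can overlap. Among promoters from RefSeq, the CDX motif was in 11.9%, CAAAGTTCA in 0.39%, CAAAGTCCA in 0.475%, GATA in 11.2%, FOXA in 3.65%, the AHR:ARNT core in 32.4%, TEAD in 14.7% and AP-1 in 7.81%.

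Of the 10 promoter sites 9 kept their peaks in all libraries, over regions 1063 to 3964 bp wide. At every member the site of highest median fold enrichment lay outside the promoters. The margin was small at *Foxa2*, where the +21.3 kb site, called in 3 libraries, had 3.51 and the promoter site 3.46. At *Hnf4g* the promoter site at +125.9 kb, with 5.26, was exceeded only by the +18.2 kb site (6.86). The *Foxa1* promoter site (chr12:57545036-57547375) was covered over 2150 to 2289 bp in WENR and 2188 to 2313 bp in d4 ENR, so the bases that *Foxa1* lost lay outside its promoter. The *Cdx1* promoter site (chr18:61032662-61036625) was covered over 3566 to 3964 bp in WENR, 1798, 2619 and 2710 bp in WT d4 ENR and 3481 and 3720 bp in AHR KO d4 ENR. The *Foxa2* promoter site (chr2:148044051-148046969), the only site of this gene called everywhere, was covered over 2465 to 2907 bp in WENR and 1709 to 2475 bp in d4 ENR. The *Gata6* promoter site (chr18:11051385-11053788) was covered over 2125 to 2375 bp in WENR and 1830 to 2332 bp in d4 ENR, which overlapped while the gene as a whole fell. The first *Hnf4g* promoter site (chr3:3507292-3509377) was covered over 1744 to 1878 bp in WENR, 922, 1715 and 1729 bp in WT d4 ENR and 2068 and 1844 bp in AHR KO d4 ENR. The P1 promoter site of *Hnf4a*, at +40.4 kb, was covered over 1117 to 1292 bp, 852 to 947 bp and 1086 and 1183 bp, respectively.

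Outside the promoters, the most enriched sites of *Cdx1* lay in an intron at +10.6 kb and downstream at +18 kb, with fold enrichments of 5.57 to 6.02 and 5.44 to 6.10 in WENR and 4.58 to 6.70 and 4.69 to 5.80 in d4 ENR, which overlapped. At *Cdx2* they lay downstream at +7.1 kb and +14.1 kb, and the latter kept 2394 to 2593 covered bp in every library. At *Hnf4a* they lay upstream at -12.7 kb (covered over 1073 to 1166 bp in WENR, 364, 519 and 629 bp in WT d4 ENR and 923 and 866 bp in AHR KO d4 ENR) and at +28.0 kb in intron 1. At *Gata6* an upstream site at -16.7 kb had 5.80 to 6.45 in WENR, no peak in WT d4 ENR replicate 1, 4.57 and 4.54 in the other WT d4 ENR libraries and 4.18 and 5.81 in AHR KO d4 ENR. A downstream site of *Foxa1* at +18.3 kb had 4.39 to 5.23 in WENR and no d4 ENR peak except 2.86 in AHR KO d4 ENR replicate 2, and that at +23.9 kb was called in all WENR libraries and, in d4 ENR, in WT replicate 3 alone. The *Foxa2* sites of this kind, at +16.2 and +21.3 kb, were called in 1 and 3 libraries.

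At the 30 shared sites peak values can be compared in all libraries. For these broad peaks, fold enrichment and pileup (the fragments stacked over a peak) are averages along the called peak, not its height. Both can therefore move with its called width. Fold enrichment, which relates a peak to its own surroundings, was lower in every d4 ENR library of both genotypes at 2 sites and higher at 5, where 15.0% of 28205 shared regions were lower and 8.18% were higher. Each of the 7 had an exact permutation p of 0.02 and an adjusted p of 0.0862 over the shared regions, so none passed. The site with the highest fold enrichment of any member, at +18.2 kb in intron 1 of *Hnf4g*, had 7.33 and 7.44 in WT WENR, 7.15, 7.12 and 6.63 in AHR KO WENR, 2.82, 4.61 and 7.09 in WT d4 ENR and 5.07 and 6.32 in AHR KO d4 ENR (difference -1.91). WT d4 ENR replicate 3 lay above AHR KO WENR replicate 3 there, and the WT and AHR KO media did not overlap within each genotype.

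At *Cdx2* the promoter site had 2.82 and 2.90 in WT WENR, 2.97, 3.01 and 3.09 in AHR KO WENR, 3.25, 4.6 and 3.34 in WT d4 ENR and 4.00 and 3.25 in AHR KO d4 ENR, all higher in d4 ENR (difference 0.737). That promoter site was covered over 2665 to 2790 bp in WENR, 1554, 1858 and 2720 bp in WT d4 ENR and 2333 and 2757 bp in AHR KO d4 ENR. The part of peak width in these values was not tested. In fold enrichment a downstream site of *Cdx2* at +7.1 kb was also higher (difference 0.857), and an upstream site at -8.3 kb was lower (difference -1.48). The -8.3 kb site also overlaps the neighbouring gene *Urad*. By pileup set to the fragments of each library, all 4 shared sites of the *Cdx2* window were lower in d4 ENR in both genotypes. Sites of this window thus moved in both directions in fold enrichment only, where none passed the adjustment. The values that follow are again fold enrichments. At *Hnf4a* the P2 promoter site, at +0.3 kb, had 3.58 and 3.37 in WT WENR, 4.15, 3.64 and 3.36 in AHR KO WENR, 3.63, 5.59 and 5.34 in WT d4 ENR and 4.39 and 4.23 in AHR KO d4 ENR (difference 0.987). A site at +73.5 kb of *Hnf4a* (0.760) and 1 at +7.7 kb of *Foxa1* (0.271) made up the 5.

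Between genotypes in d4 ENR, fold enrichment was higher in both AHR KO libraries at 4 sites and lower at 3, where 12.5% and 3.08% of shared regions were. Higher were *Hnf4a* at -12.7 kb (difference 1.35), *Gata6* at +9.1 kb (1.25), *Hnf4g* at +138.2 kb (1.13) and the *Foxa2* promoter site (0.534). Lower were *Hnf4a* at +73.5 kb (-0.955) and *Foxa1* at +4.1 kb (-0.161) and +7.7 kb (-0.16). The exact permutation p was 0.20 at each, its smallest value, and the adjusted p was 1. The balance depended on the scale. Ranked within each library, as a percentile of fold enrichment among the shared regions, 3 sites were higher and 11 were lower in AHR KO, where 15.8% and 18.2% of shared regions were. The median difference over the 30 sites was -6.71 percentile points, beside -0.434 over the shared regions.

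Pileup, the number of fragments stacked over a peak averaged along it, was set per 1000000 fragments of the library. It was lower in every d4 ENR library of both genotypes at 24 of the 30 sites (adjusted p = 0.0239 each, exact permutation test), where 83.4% of shared regions were. In d4 ENR both AHR KO libraries exceeded every WT library at 27 of 30, where 74.1% of shared regions were. The *Gata6* promoter site had 7.92 to 9.33 in WENR, 1.67 to 2.58 in WT d4 ENR and 3.78 and 4.43 in AHR KO d4 ENR, and the *Cdx2* promoter site 4.53 to 5.04, 1.27 to 1.75 and 2.87 and 3.41. The second start of *Hnf4g*, at +125.9 kb, had 0.661 to 1.17 in WENR, 0.434 to 1.02 in WT d4 ENR and 1.40 and 1.16 in AHR KO d4 ENR (difference between media 0.0192, exact permutation p = 0.94). The covered bases of the shared sites themselves fell without overlap at 4 of 30, where 34.9% of shared regions did.

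**Figure D4:**
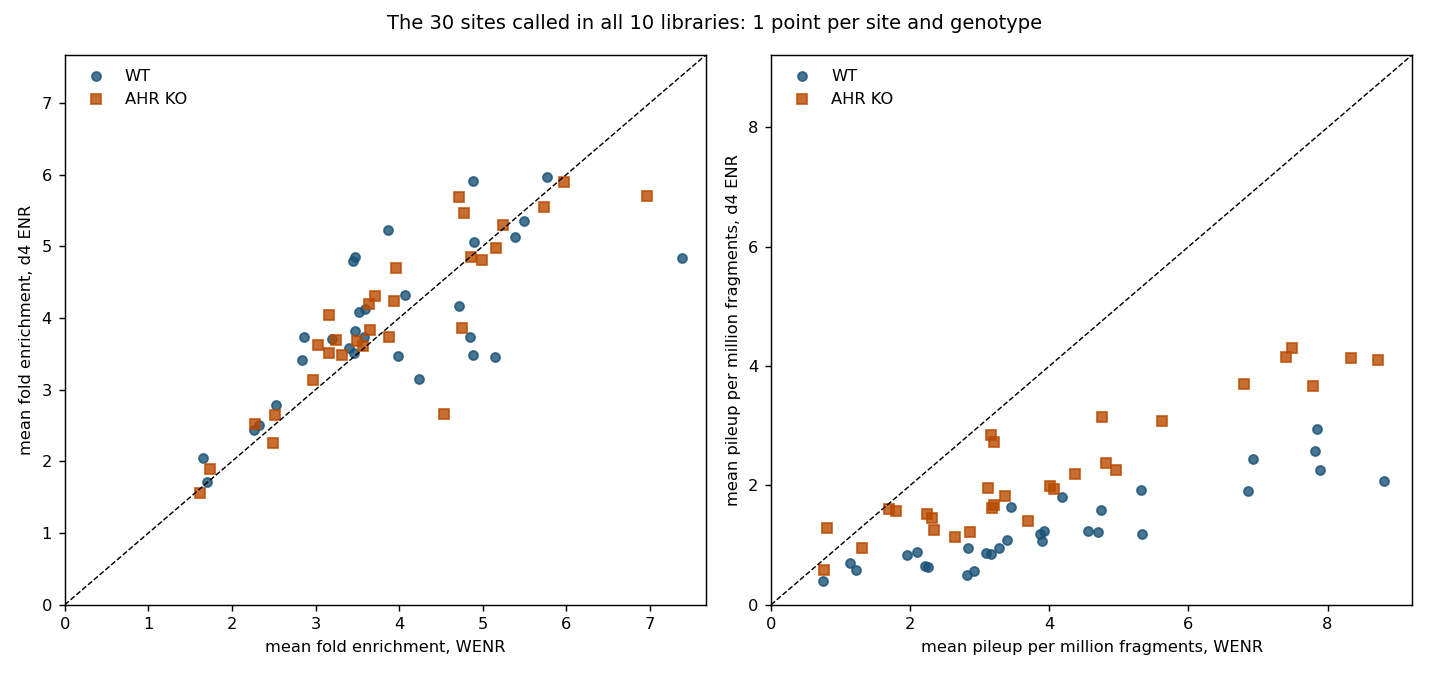
Mean fold enrichment (left) and mean pileup per 1000000 fragments (right) in WENR (x axis) and d4 ENR (y axis) at the 30 sites called in all 10 libraries, in WT (circles) and AHR KO (squares); the dashed line marks equal values. Fold enrichment scatters around the line, whereas pileup lies below it for all WT points and for most AHR KO points.

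Other regulators of intestinal fate were set beside the members with the same windows. Of 20 further intestinal regulators, 14 were covered less in d4 ENR in both genotypes and none more, beside 59.3% and 0.358% of all genes. In d4 ENR 16 of the 20 were covered more in AHR KO than in WT, beside 59.5% of all genes. *Gata4*, a paralogue of *Gata6* typical of the proximal intestine, had 9627 and 8500 bp in WT WENR and 2082, 2741 and 4327 bp in WT d4 ENR. *Klf5*, a crypt regulator, had 15858 and 16354 bp and then 4135, 6611 and 9011 bp. Like *Hnf4g*, 3 of the 20 were covered more in AHR KO d4 ENR than in AHR KO WENR, as 5.22% of all genes were, namely *Rxra*, a partner of nuclear receptors (ratio 1.33), *Isx*, an intestinal homeobox gene (1.09), and *Prdm1*, a repressor active in the immature intestine (1.26). All 8 regulators of foregut and stomach were covered less in d4 ENR in both genotypes, beside 59.3% of all genes. Among these, the window of *Pdx1* overlaps that of *Cdx2* and holds the *Cdx2* site at +14.1 kb, so those bases count for both genes. *Nkx2-1*, a lung and thyroid factor, was at 0, 0 and 716 bp in WT d4 ENR against 3743 and 5628 bp in WT WENR, and *Barx1*, a stomach factor, at 0, 170 and 1137 bp against 3690 and 4827 bp.

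Of 13 effector genes of the mature intestine, 6 were covered less in d4 ENR in both genotypes and 8 were covered more in AHR KO than in WT in d4 ENR, beside 59.3% and 59.5% of all genes. In AHR KO 3 of the 13 were covered more in d4 ENR than in WENR, beside 5.22% of all genes. *Car4*, a carbonic anhydrase of the colon surface, had 0 and 280 bp in WT WENR, 791, 0 and 525 bp in AHR KO WENR, 0, 1247 and 1911 bp in WT d4 ENR and 1991 and 3493 bp in AHR KO d4 ENR. *Slc26a3*, the chloride exchanger of colonocytes (ratio 1.34), and *Guca2a*, guanylin (1.45), were the other two of these. *Heph*, a ferroxidase of iron export, had 2178 and 2382 bp in WT WENR and 548, 668 and 740 bp in WT d4 ENR.

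Markers of the labelled cells and of others were checked over gene bodies with 5 kb on each side. All 10 epithelial markers held peaks, with summed covered bases of 67939 to 77364 in WENR, 37821 to 52197 in WT d4 ENR and 60096 and 60503 in AHR KO d4 ENR. Of the 7 mesenchymal markers *Col1a2* and *Dcn* held none in any library, and the sum was 7595 to 10640, 3126 to 3817 and 4665 and 6407. All 4 endothelial markers held peaks, and the sum was 3519 to 5118, 915 to 2112 and 2767 and 4438. These 3 sums were thus higher in AHR KO than in WT in d4 ENR, as those of the members were, and the part of other cells in the member values was not tested. The window of the mesenchymal marker *Pdgfrb* overlaps that of *Cdx1*, so the mesenchymal sum holds some bases counted for a member. *Pdgfrb* had 1720, 1039 and 1072 bp in WT d4 ENR and 2136 and 3265 bp in AHR KO d4 ENR.

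The genes outside the member windows whose covered bases per Mb were most like the mean of the 7 members over the 10 libraries were *Gemin8* (Pearson r = 0.956), *Cd320* (0.95), *Gabrr3* (0.948), *Clcn2* (0.946) and *Shc2* (0.941), among 18440 genes. The points share their libraries, depth and peak lists, and the values are a description.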

How the data were processed

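Omni-ATAC-seq peak lists of 10 mouse colon organoid libraries were used, grouped by genotype and medium from the labels. Reads were trimmed and aligned by the authors (BWA, GRCm38). Their broad peaks come from separate MACS 2.2.7.1 runs per library without a control, with q thresholds of 0.1 (broad) and 0.05 (narrow) and a local background over 10000 bp. The deposited pileup is a coverage signal in fragments, averaged along the broad peak and not scaled for depth. The deposited fold enrichment, also averaged along the peak, relates this signal to the local background of the same library. The deposited −log10 p and q values ranked and filtered peaks. Counts of reads were not used here, which left out the study's count test, and precision is set by the 2 or 3 libraries a group and by 30354729 to 49126792 fragments a library.

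Peaks sharing 1 bp or more were merged into regions, and bases covered were summed over gene bodies with 20 kb on each side (GENCODE M21, GRCm38). Promoter sites overlapped 1 kb upstream to 100 bp downstream of a start. Differences were tested with 2-sided exact permutation tests (2 times the smaller tail), with 10 arrangements within a medium or genotype (smallest p 0.2) and 100 over both (smallest p 0.02), adjusted by Benjamini-Hochberg over all 18452 genes or 28205 shared regions. "Without overlap" means that every library of a group lay on one side of every library of the other, within both genotypes for the media. Sites named were promoter sites, those that part groups completely by presence (at most 3 a gene), and the 2 other sites a gene of highest median fold enrichment where called. Shared sites whose fold enrichment did not overlap between groups were named after their values were seen. Listed genes are given as counts, with values for those unlike most and up to 2 a list with the largest change. The members and gene lists were chosen with earlier results of these data known. Windows, peak significance, list length, coverage per Mb, 50% overlap, other peak measures, a block on replicate numbers and single libraries left out were tried as alternatives. Procedures were tested on simulated data. Some items of the lists and sites are not reported here. Python 3.11.15, numpy 2.4.6, pandas 2.3.3, scipy 1.17.1, matplotlib 3.10.9 and samtools 1.23.1 were used.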

Additional observations from a re-analysis of the deposited data

Results flagged for a closer look

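At *Hnf4g* every WT d4 ENR library had fewer covered bases than the WT WENR libraries, and every AHR KO d4 ENR library had more than the AHR KO WENR libraries (-3311 bp in WT, 1767 bp in AHR KO). The AHR KO minus WT difference was 5078 bp larger in d4 ENR than in WENR (exact permutation p = 0.20, adjusted p = 0.458), so opposite directions were seen and the test of the difference did not pass.

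At *Foxa1* the same difference was 1944 bp larger in d4 ENR than in WENR, with an exact permutation p of 0.02, the smallest it can give, and an adjusted p of 0.317 over all genes. Per Mb covered it was -15.9 bp, the opposite sign.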

How the results depend on the processing

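Of the values for single genes, 667 kept direction and side of the threshold under an alternative, 38 kept direction only, 25 newly passed and 54 turned. Of the counts that answer a comparison, 115 stayed within 1.5 times and 35 moved. The cause was not tested.

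Per Mb covered, the media difference over both genotypes turned to 6.10 bp for *Cdx1*, 52.3 for *Cdx2*, 59.7 for *Hnf4g* and 28.1 for *Foxa1*; in WT to 6.69 (*Cdx1*), 58.1 (*Cdx2*), 31.1 (*Hnf4g*), 36.1 (*Foxa1*) and 12.9 (*Foxa2*); and in AHR KO to 5.51 (*Cdx1*), 46.5 (*Cdx2*) and 20.2 (*Foxa1*). The AHR KO minus WT difference in d4 ENR turned to -0.885 (*Cdx1*), -10.9 (*Cdx2*), -22.0 (*Hnf4a*), -1.64 (*Gata6*), -24.1 (*Foxa1*) and -21.1 (*Foxa2*), in WENR to -0.143 (*Hnf4a*), and over both media to -0.296 (*Cdx1*), -5.16 (*Cdx2*), -11.1 (*Hnf4a*), -3.14 (*Gata6*), -16.2 (*Foxa1*) and -7.22 (*Foxa2*). The difference between media in the genotype difference turned to -1.18 (*Cdx1*), -11.5 (*Cdx2*), -21.8 (*Hnf4a*) and -15.9 (*Foxa1*).

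With lists of equal length the media difference was 371 bp for *Hnf4g* and, in AHR KO, 1892 for *Cdx1*; the genotype difference was -108 for *Foxa2* in d4 ENR, -2645 for *Cdx1* and -930 for *Hnf4g* in WENR, and -584 for *Foxa1* over both media. With only peaks of −log10 q 5 or more it was 336 for *Gata6* in WENR, and the AHR KO media difference was -189 for *Hnf4g*. Over the gene body alone the WENR genotype difference was -199 for *Cdx1* and 178 for *Gata6*. With 5 kb on each side it was 346 for *Gata6*, the AHR KO media difference was 98.3 for *Foxa1*, and the difference between media in the genotype difference was 46.8 for *Foxa2*. With 1 library left out the WENR genotype difference ranged from -337 to 874 (*Cdx1*), -67.7 to 622 (*Cdx2*), -204 to 1128 (*Hnf4a*) and -922 to 830 (*Gata6*), and the AHR KO media difference from -301 to 274 (*Cdx2*).

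Members covered less in d4 ENR numbered 2 with equal lists and 1 per Mb (5 to 5 without single libraries). Those covered more in AHR KO in d4 ENR numbered 1 per Mb (6 to 7). In WENR they numbered 1 over the body alone, 0 with equal lists, 0 at a −log10 q of at least 5 and 1 per Mb (2 to 5). Members at p 0.05 or less over both media numbered 1 over the body alone, 0 with equal lists and 1 per Mb (1 to 4). Members with a larger genotype difference in d4 ENR numbered 2 over the body alone, 0 at a −log10 q of at least 5 and 0 per Mb (1 to 1). Sites lost in all d4 ENR libraries numbered 1 with equal lists (7 to 8). Sites of AHR KO only in d4 ENR numbered 8 with at least 50% covered (3 to 8), and in WENR 0 to 1. Shared sites lower in d4 ENR numbered 4 by percentile and 24 by pileup (2 to 5), and those higher in AHR KO in d4 ENR 27 by pileup (4 to 6). Leaving out a library can loosen the call for every gene and region, and the matching shares over all of them are not given.

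Same-numbered libraries correlated at -0.0836 to 0.221 in their deviations and no source says that a number marks a shared line, so numbers were not taken as pairs. With the replicate number as a block, a call means the same direction in both same-numbered pairs, with no p. Members with a larger genotype difference in d4 ENR then numbered 6, a count not comparable with the 1 called by p. Shared sites lower in d4 ENR numbered 4 and those higher in AHR KO 10. The matching shares over all genes and regions are not given, so these counts are not a result about the members. *Cdx2* differed by 274 bp between media in AHR KO and by -3 bp between genotypes in WENR.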
